A study of Mus musculus with 18 samples.

Results

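The ELAV family of RNA-binding protein genes, Elavl1, Elavl2, Elavl3 and Elavl4, was followed across whole mouse ovaries that lacked Elavl2 and their wild type counterparts. They are 4 of the 27218 gene names on the array, and all non-control probes that carry 1 of these names in the scanner files were taken, which gave 9 of 41174 probes. Of these, 8 were among the 29201 probes tested, the requirement being a signal well over background in each of the 3 arrays of some group. Samples were ovaries (XX gonads) of Elavl2 knockout (KO) and wild type (WT) mice taken at 2 embryonic stages (E15.5 and E17.5, named for the days of gestation) or on the day of birth (P0), with 3 samples in each of the 6 groups and 1 Agilent 1-colour array for each of the 18 samples. No allele, strain or further treatment is named in the labels. The sample type is given as mixed and separate animals are not mentioned, so every p measures the spread between these samples, which may be technical. The deleted part of Elavl2 is not given in the sources used here, so the Elavl2 probes describe its RNA and do not check the genotype labels.

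ELAV proteins, also called Hu proteins, carry RNA recognition motifs with which they bind U-rich and AU-rich stretches, mostly in introns and 3′ untranslated regions, and they change the splicing, stability and translation of the RNAs they bind. Elavl1 (HuR) is made in nearly all cell types. Elavl2 (HuB), Elavl3 (HuC) and Elavl4 (HuD) are best known from neurons, and Elavl2 is also made in germ cells of the gonads. ELAV proteins are known to bind the messages of family members, Elavl1 RNA included, and the alternative 3′ ends of Elavl1 RNA have been described in neuronal cells.

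The probes of Elavl1 and Elavl2 are shown first because the results turn on where in the transcript they lie. On build mm9, Elavl1 was covered by 3 probes on the minus strand of chromosome 8 that start at bases 1139, 2307 and 5238 of the transcript named in the files. Their distances in the transcript, 1168 and 2931 bases between neighbours, equal their distances in the genome, so no intron lies between them. The base 1139 probe reads without a stop codon in 2 of 3 frames, whereas the base 2307 and base 5238 probes hold a stop codon in all 3 frames. The 2 Elavl2 probes, on the minus strand of chromosome 4, start at bases 1816 and 2823 and are 1007 bases apart in both transcript and genome. Printed 5′ to 3′ are the whole base 1139 probe and the last 30 bases of the other 4, with the run TTTTT in capitals:
Elavl1 base 1139, chr8:4289613-4289672, minus strand: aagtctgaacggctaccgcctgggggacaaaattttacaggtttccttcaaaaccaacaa
Elavl1 base 2307, chr8:4288445-4288474, minus strand: cctcaaagttctcttcataactgccttgac
Elavl1 base 5238, chr8:4285514-4285543, minus strand: atggctagacaTTTTTgtatattagtgtgt
Elavl2 base 1816, chr4:90919418-90919447, minus strand: gctgttatgtctcagaaaagcattttgaag
Elavl2 base 2823, chr4:90918411-90918440, minus strand: agatagtctagcttcagctgtttatggtga

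Of 2 sequence runs of the kind that ELAV proteins bind, searched on the probe strand only and able to overlap, TTTTT was in 2 of the 9 member probes and in 10.5% of all probes, and ATTTA was in 0 of the 9 and in 9.16% of all probes. Elavl3 was covered by a probe at base 1945 of its transcript (chromosome 9, 21822471 to 21822530) and by a probe to another cDNA (21827289 to 21827348). Elavl4 was covered at bases 792 and 1515 (chromosome 4, 109884183 to 109884242 and 109878775 to 109878834). The Elavl4 probes are 723 bases apart in the transcript and 5408 in the genome, so intron sequence lies between them.

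Levels are given as log2 signal, the log2 background-subtracted intensity minus the 75th percentile of the same array, so that 0 is the 75th percentile of an array. They compare arrays for 1 probe and do not rank probes against each other. Across tested probes, arrays of the same group had a Pearson's r between 0.964 and 0.995. Of all non-control probes, between 62.5% and 75.1% were well above background on an array. The number of arrays limits the precision of every value. At E15.5 and P0 the 3 WT arrays shared a slide that held no KO array of that stage, so slide and genotype cannot be told apart there. The same holds for replicates 1 and 2 at E17.5, which lay on slide 5 for KO and slide 4 for WT. At E17.5 replicate 3 of both genotypes lay on slide 3 and in another scanning run (run A, which also held all E15.5 arrays) than replicates 1 and 2 (run B).

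More members were called at later stages. A probe was called at an adjusted p under 0.05 (limma, Benjamini-Hochberg over all tested probes). At E15.5 the KO minus WT difference was called for 1 of the 8 member probes (lower), against 2.06% of all tested probes. At E17.5 it was called for 4 members (1 higher, 3 lower), against 4.82% of all probes. At P0 it was called for 6 members (2 higher, 4 lower), and there 32.5% of all probes were called, so the P0 count is read against a broad change. Members of 1 gene are not independent of each other: the 6 calls at P0 come from 4 genes.

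**Figure D1:**
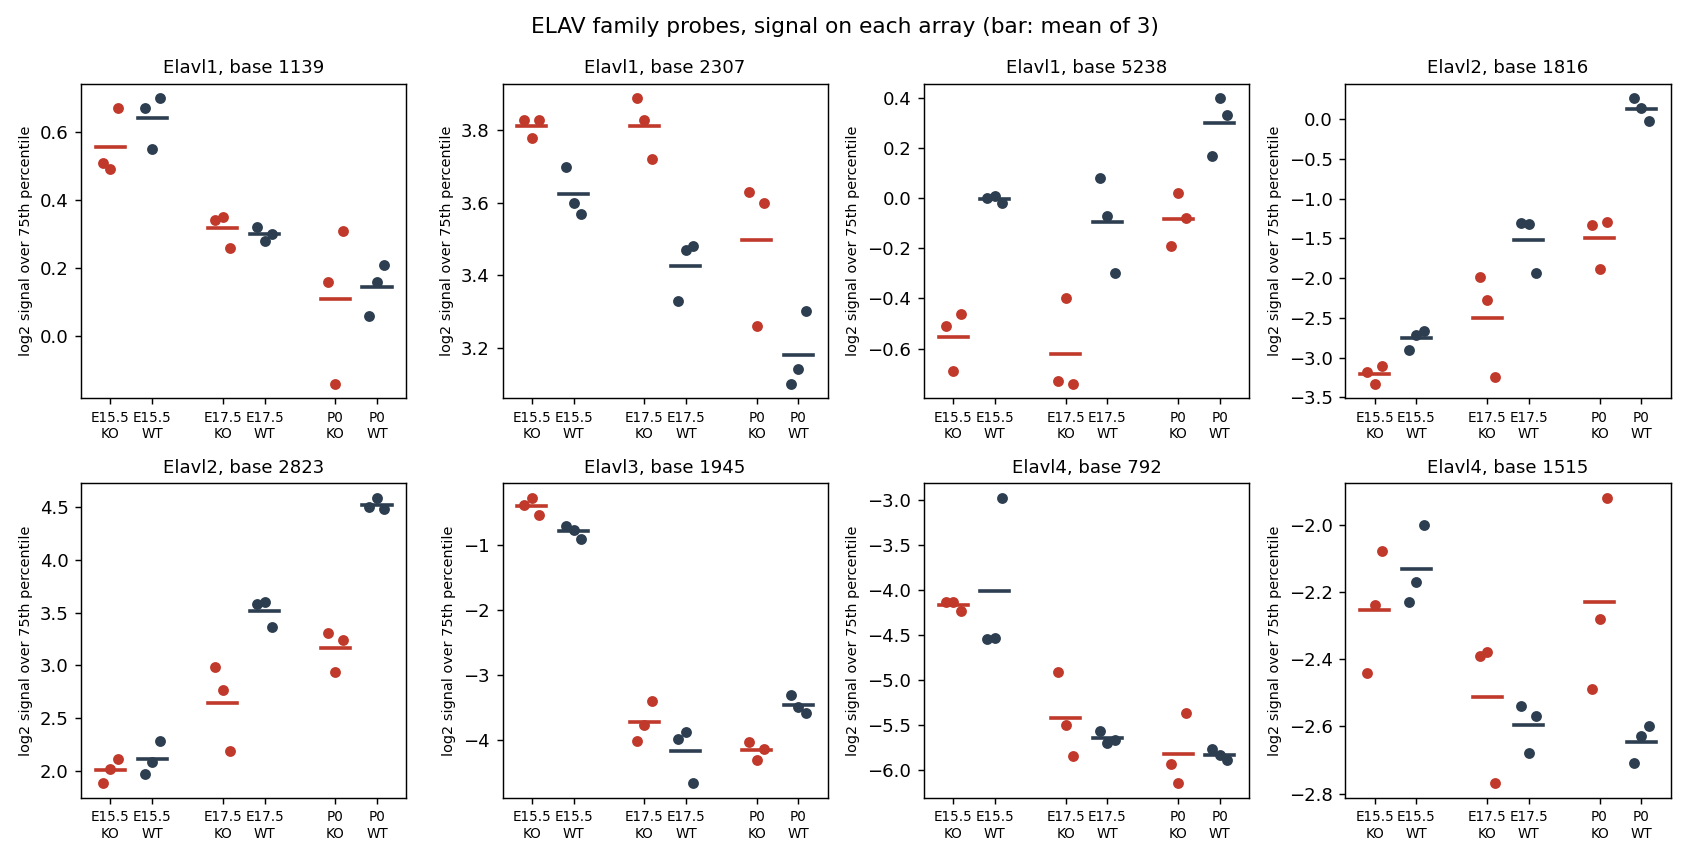
Log2 signal of the 8 tested ELAV family probes on each of the 18 arrays, relative to the array's 75th percentile, by stage and genotype with KO left of WT; points are arrays, bars are means of 3, and each panel has its own scale. The KO and WT arrays of Elavl2 separate at E17.5 and P0, the base 5238 probe of Elavl1 is lower on every KO array than on every WT array of its stage, and Elavl3 is highest at E15.5 in both genotypes.

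Elavl2 RNA was lower in KO ovaries late and stayed readily measurable. The base 2823 probe of Elavl2, which was well above background on all 18 arrays, read 1.88, 2.02 and 2.11 in E15.5 KO ovaries, against 1.97, 2.08 and 2.28 in E15.5 WT ovaries. At E17.5 the same probe read 2.98, 2.77 and 2.19 in KO ovaries, against 3.58, 3.60 and 3.36 in WT ovaries. At P0 it read 3.31, 2.94 and 3.24 in KO ovaries, against 4.50, 4.59 and 4.48 in WT ovaries. The genotypes overlapped at E15.5 and were apart at E17.5 and P0, where every KO array lay below every WT array. At P0 the signal was 2.57-fold lower in KO ovaries (log2 difference -1.36, SE 0.12, adjusted p = 1.03e-05), and at E17.5 it was 1.82-fold lower (-0.87, SE 0.12, adjusted p = 0.0043). The E15.5 difference of -0.11 did not pass (95% interval -0.38 to 0.16, adjusted p = 0.742). In whole-ovary RNA, fewer cells of a type and less RNA per cell cannot be told apart.

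The base 1816 probe of Elavl2 was also lower in KO ovaries at E17.5 and P0. It read -3.18, -3.33 and -3.11 in E15.5 KO ovaries against -2.90, -2.71 and -2.66 in E15.5 WT ovaries, groups that did not overlap although the difference of -0.45 did not pass the test (SE 0.16, adjusted p = 0.173). At P0 the base 1816 probe read -1.33, -1.88 and -1.29 in KO ovaries, against 0.27, 0.14 and -0.02 in WT ovaries, a 3.09-fold lower signal in KO (log2 difference -1.63, SE 0.16, adjusted p = 1.57e-05). At E17.5 it differed by -0.97 (SE 0.16, adjusted p = 0.0064). That E17.5 call was lost without either replicate 3 array (adjusted p = 0.0575 without the KO array and 0.0572 without the WT array, log2 difference -0.81 in both), and when slide replaced run as a random block (adjusted p = 0.0772). On slide 3 itself the KO array lay below the WT array by -1.17 at base 2823 and by -1.30 at base 1816.

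The rise of Elavl2 with age was smaller in KO ovaries. In KO ovaries the base 2823 probe stood 0.34 higher at E17.5 than at E15.5 (SE 0.15, adjusted p = 0.127) and 0.36 higher at P0 than at E17.5 (SE 0.13, adjusted p = 0.0437), in a fit that takes out the run. The call of the later KO step held in 13 of 32 alternatives, and the earlier KO step ran from 0.15 to 0.93 over them. The run term rests on the E17.5 arrays, the only stage with arrays in both runs. In WT ovaries the same steps were 1.09 (SE 0.15, adjusted p = 0.000332) and 0.86 (SE 0.13, adjusted p = 0.000287). Over the whole span from E15.5 to P0 the signal rose 1.63-fold in KO ovaries and 3.86-fold in WT ovaries, with the run taken out. The measured group means, without that term, went from 2.00 to 3.16 in KO ovaries and from 2.11 to 4.52 in WT ovaries. The test of the difference between these courses gave -1.25 for base 2823 (SE 0.17, adjusted p = 0.000758) and -1.18 for base 1816 (SE 0.22, adjusted p = 0.00406). This change of the genotype difference from E15.5 to P0 was called for 3 of the 8 members, all lower, against 17.4% of all tested probes. Between E15.5 and E17.5 it was called for 0 members (0.188% of all probes; 2 member probes had an unadjusted p under 0.05), and between E17.5 and P0 for 1 (lower, against 8.99%).

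Of the 10 germ cell genes in the list set beside Elavl2, 3 rose at P0, 0 fell and 7 were not called, with a median difference of 0.22, and that share of calls is near the 32.5% of all probes. The part of germ cell content in the Elavl2 result was not tested. The summed signal of the list was 146 to 176 in P0 KO ovaries and 115 to 130 in P0 WT ovaries, in units of the array's 75th percentile. At E15.5 the sum was also higher in KO ovaries, 157 to 176 against 134 to 140 in WT ovaries. None of the 10 genes was called there, against 2.06% of all probes. Tex101, a germ cell surface protein gene, was 1.48 higher in P0 KO ovaries (SE 0.13), Taf7l, a germ cell transcription factor gene, 1.44 higher (SE 0.18) and Dazl, a germ cell RNA-binding protein gene, 0.86 higher (SE 0.13), on the log2 scale. Sycp3, of the meiotic chromosome axis, differed by -0.26 (SE 0.11, adjusted p = 0.0907). At E17.5 the germ cell list had 1 member higher and 1 lower (median -0.25), against 4.82% of all probes called, and the summed signals of the genotypes overlapped.

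Elavl1 showed opposite genotype differences at different places of its transcript. The base 5238 probe, farthest 3′, was lower in KO ovaries at all 3 stages, the base 2307 probe was higher at E17.5 and P0, and the base 1139 probe passed the test at none. The base 5238 probe of Elavl1 read -0.51, -0.69 and -0.46 in E15.5 KO ovaries, against 0.00, 0.01 and -0.02 in E15.5 WT ovaries. At E17.5 it read -0.73, -0.40 and -0.74 in KO ovaries, against 0.08, -0.07 and -0.30 in WT ovaries. At P0 it read -0.19, 0.02 and -0.08 in KO ovaries, against 0.17, 0.40 and 0.33 in WT ovaries. At each stage every KO array was below every WT array. The differences were -0.55 at E15.5 (adjusted p = 0.0182), -0.53 at E17.5 (adjusted p = 0.0123) and -0.38 at P0 (adjusted p = 0.0107), each with an SE of 0.10.

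The base 2307 probe of Elavl1 moved the other way. It read 3.83, 3.78 and 3.83 in E15.5 KO ovaries, against 3.70, 3.60 and 3.57 in E15.5 WT ovaries. At E17.5 it read 3.89, 3.83 and 3.72 in KO ovaries, against 3.33, 3.47 and 3.48 in WT ovaries. At P0 it read 3.63, 3.26 and 3.60 in KO ovaries, against 3.10, 3.14 and 3.30 in WT ovaries. The genotypes did not overlap at E15.5 and E17.5, and at P0 the second KO array lay below the third WT array. Differences of the base 2307 probe, each with an SE of 0.10, were 0.19 at E15.5 (adjusted p = 0.381), 0.38 at E17.5 (adjusted p = 0.0409) and 0.32 at P0 (adjusted p = 0.024). The E17.5 call held in 12 of 34 alternatives and was lost in a fit blocked on replicate number (adjusted p = 0.0897). The P0 call held in 28 of 34 and was lost without P0 KO replicate 1 or 3 or P0 WT replicate 1 or 2 (0.25 to 0.30, adjusted p = 0.0741 to 0.0897).

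The base 1139 probe of Elavl1 differed by -0.08, 0.02 and -0.03 at E15.5, E17.5 and P0 (95% intervals -0.30 to 0.13, -0.20 to 0.23 and -0.25 to 0.18), and the genotypes overlapped at each stage. Over the mean of the 3 stages the Elavl1 differences were -0.49 at base 5238 (SE 0.06, adjusted p = 0.000124), 0.30 at base 2307 (SE 0.06, adjusted p = 0.00218) and -0.03 at base 1139 (SE 0.06, adjusted p = 0.712). That comparison called 4 of the 8 member probes (1 higher, 3 lower), against 25.5% of all tested probes. At base 5238 and base 2307 the mean over stages kept its call in all 33 alternatives that gave it, with a largest adjusted p of 0.00427 and 0.021. Single-stage calls of base 5238 held in 26 of 34 alternatives at E15.5, 26 of 34 at E17.5 and 32 of 34 at P0. When slide replaced run as a random block, the base 5238 differences of -0.50, -0.51 and -0.41 at E15.5, E17.5 and P0 had an adjusted p of 0.823, 0.0817 and 0.121. On slide 3, where the genotypes shared a slide at E17.5, KO minus WT was -0.43 at base 5238, 0.24 at base 2307 and -0.03 at base 1139.

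**Figure D2:**
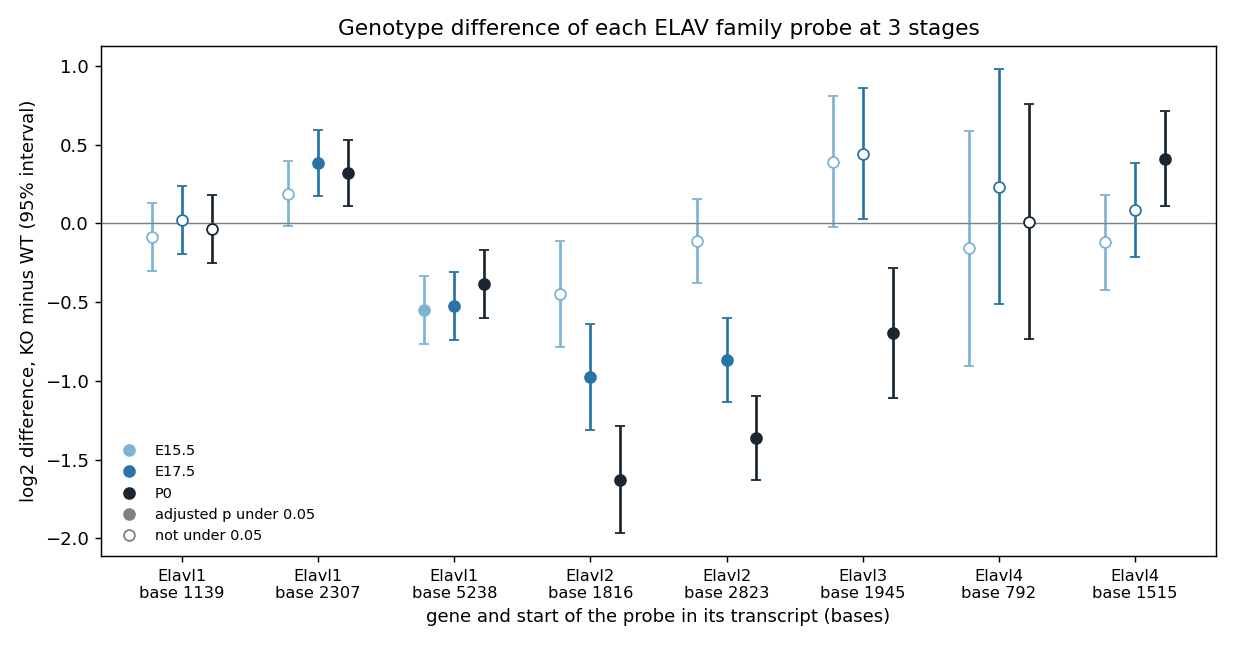
KO minus WT log2 difference of each tested ELAV family probe at the 3 stages with its 95% interval from the fit over all tested probes; filled points passed an adjusted p of 0.05 and open points did not. Within Elavl1 the base 2307 and base 5238 probes lie on opposite sides of 0, both Elavl2 probes move further below 0 with age, and Elavl3 is above 0 at E15.5 and E17.5 and below 0 at P0.

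The unequal change within Elavl1 was also expressed as the ratio of probes on the same array, which no scaling of whole arrays can move. It was computed after the probe differences were seen and holds the same arrays, so its p is not independent support for them. The log2 ratio of the base 5238 probe to the base 2307 probe was -4.33, -4.47 and -4.29 in E15.5 KO ovaries, against -3.70, -3.59 and -3.58 in E15.5 WT ovaries. At E17.5 the ratio was -4.62, -4.23 and -4.46 in KO ovaries, against -3.25, -3.54 and -3.79 in WT ovaries. At P0 it was -3.82, -3.25 and -3.68 in KO ovaries, against -2.93, -2.74 and -2.97 in WT ovaries. No KO array overlapped a WT array of its stage, and the value of the ratio itself carries no unit of transcripts. Averaged over stages, KO minus WT of this log2 ratio was -0.78, with p = 0.00025 in an exact two-sided permutation test that exchanged genotypes within stages (8000 regroupings, 0.00025 being the smallest p they can give). That test treats the arrays of a stage as exchangeable, so it cannot tell slide from genotype.

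Of the 5 probe pairs tested in this way, adjusted over the 5 pairs, the other 2 pairs of Elavl1 also passed. Each Elavl1 ratio follows from the other 2, so these are not separate results. The base 5238 to base 1139 log2 ratio was lower in KO ovaries by -0.45 (exact permutation p = 0.00075, adjusted p = 0.00125), without overlap at E15.5 and E17.5. The base 2307 to base 1139 log2 ratio was higher in KO ovaries by 0.33 (exact permutation p = 0.00025, adjusted p = 0.000625), without overlap at any of the 3 stages. Within a single stage the exact permutation test of 3 arrays against 3 cannot go below p = 0.1. In Elavl2 the ratio of base 2823 to base 1816 was 0.24 higher in KO ovaries (exact permutation p = 0.013, adjusted p = 0.0163), but it turned to -0.025 (exact permutation p = 0.722) with normexp background correction and quantile normalization. In Elavl4 the pair did not pass (exact permutation p = 0.616).

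Called probes on opposite sides were not common among genes on this array. Of 2166 genes with at least 3 tested probes, 2 had probes called both higher and lower at E17.5 (0.0923%), of which Elavl1 was 1. At P0 there were 100 such genes (4.62%), and over the mean of the stages 85 (3.92%), Elavl1 among them both times. These shares describe the array's genes and are not a test of Elavl1. They stand beside 4.82% of all probes called at E17.5, 32.5% at P0 and 25.5% over the mean of the stages. The Elavl1 probe called higher kept its E17.5 call in 12 of 34 alternatives, so the place of Elavl1 among the 2 genes is not firm. That probe kept its call in 28 of 34 alternatives at P0 and in all 33 over the mean.

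**Figure D3:**
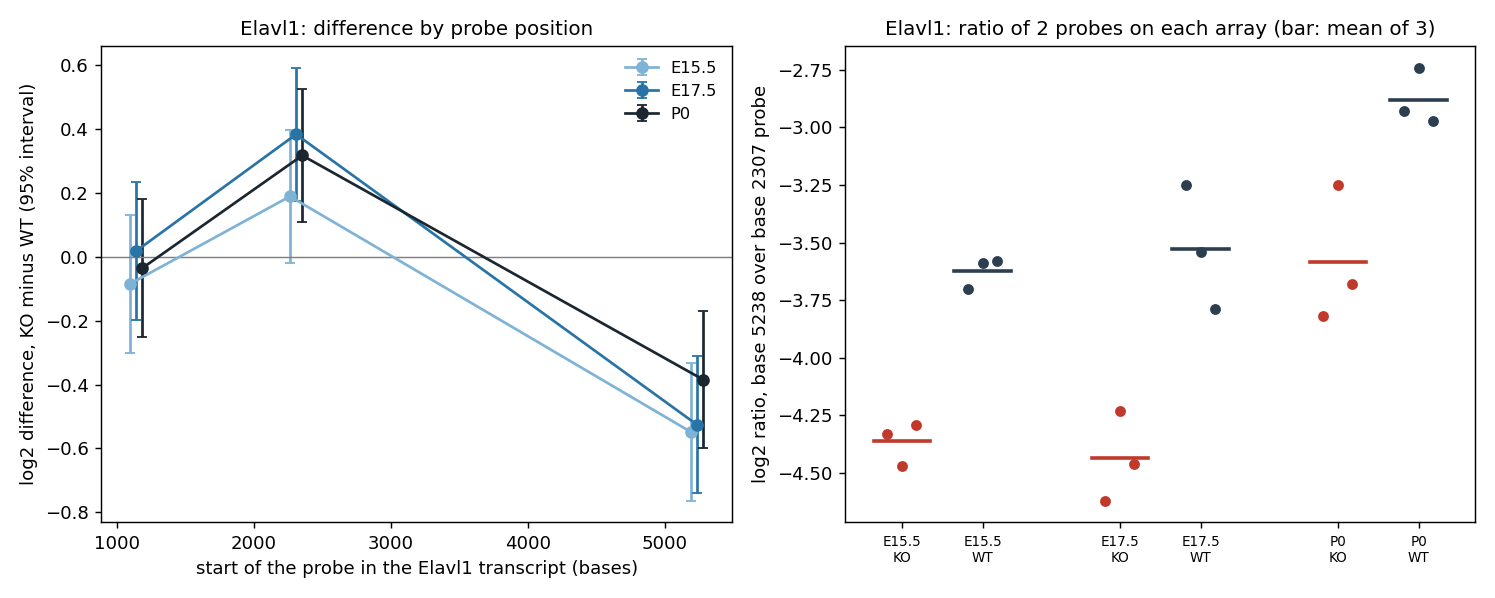
Left, KO minus WT log2 difference of the 3 Elavl1 probes with 95% intervals against the start of the probe in the transcript, in bases, at each stage. Right, log2 ratio of the base 5238 to the base 2307 probe on each array, KO left of WT, with bars for means of 3. All KO arrays lie below the WT arrays of their stage, and the P0 arrays of each genotype lie highest on average.

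The Elavl1 probes were also followed with age. In KO ovaries the base 1139 probe fell by 0.49 from E15.5 to P0 (SE 0.15, adjusted p = 0.0186), and the base 2307 and base 5238 probes differed by -0.34 (adjusted p = 0.073) and 0.22 (adjusted p = 0.246). In WT ovaries the base 2307 probe fell by 0.47 (SE 0.14, adjusted p = 0.0151) and the base 1139 probe fell by 0.54 (SE 0.15, adjusted p = 0.0088), while the base 5238 probe differed by 0.06 (SE 0.14, adjusted p = 0.761). With scaling by the array median, those WT differences of Elavl1 were -0.84 at base 2307, -0.91 at base 1139 and -0.31 at base 5238. Between E17.5 and P0 alone the base 5238 probe rose by 0.46 in KO ovaries (SE 0.11, adjusted p = 0.0046) and by 0.32 in WT ovaries (SE 0.11, adjusted p = 0.0299), the WT value being 0.16 with scaling by the array median (adjusted p = 0.257).

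Elavl3, a neuronal member, had its highest signal at E15.5 in both genotypes. The base 1945 probe of Elavl3 read -0.39, -0.27 and -0.53 in E15.5 KO ovaries, against -0.70, -0.76 and -0.90 in E15.5 WT ovaries. At E17.5 it read -4.02, -3.77 and -3.40 in KO ovaries, against -3.98, -3.88 and -4.67 in WT ovaries. At P0 it read -4.03, -4.31 and -4.14 in KO ovaries, against -3.31, -3.49 and -3.59 in WT ovaries. All 18 arrays were well above background. The groups overlapped at E17.5 and were apart at E15.5, with KO higher, and at P0, with KO lower.

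The E17.5 signal of Elavl3 was below the E15.5 signal by -3.42 in KO ovaries (10.7-fold, SE 0.24, adjusted p = 1.22e-06) and by -3.47 in WT ovaries (11.1-fold, SE 0.24, adjusted p = 2.79e-06). At P0 KO minus WT was -0.70 (SE 0.19, adjusted p = 0.015). The earlier differences of 0.39 at E15.5 (adjusted p = 0.361) and 0.44 at E17.5 (adjusted p = 0.198) did not pass. The genotype difference at P0 stood below that at E15.5 by -1.09 (SE 0.27, adjusted p = 0.017) and below that at E17.5 by -1.14 (SE 0.27, adjusted p = 0.0225). With the replicate block these had an adjusted p of 0.0589 and 0.0774. Without E17.5 KO replicate 3 or E17.5 WT replicate 3 the change from E17.5 to P0 was -0.73 (adjusted p = 0.031 in both). The call of that change held in 27 of 34 alternatives. It was lost in 2 of the fits that left out 1 array (largest adjusted p = 0.0509). The step from E17.5 to P0 was -0.47 in KO ovaries (SE 0.20, adjusted p = 0.091) and 0.67 in WT ovaries (SE 0.20, adjusted p = 0.0185). At E17.5 the values differed by run: the Elavl3 difference was 1.26 in the run A pair and 0.03 between the run B arrays. The P0 call was lost with quantile normalization (-0.49, adjusted p = 0.0747) and with scaling by the array median (-0.56, adjusted p = 0.0505), as well as without P0 KO replicate 2 or P0 WT replicate 1 (-0.62 in both, adjusted p = 0.0519 and 0.059). With normexp and quantile normalization the Elavl3 values were smaller, at -0.25 for P0 (adjusted p = 0.0473), -0.60 for the change from E15.5 to P0 (adjusted p = 0.00455) and -0.45 for that from E17.5 to P0 (adjusted p = 0.0332). The other Elavl3 probe was not well above background on any array.

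Elavl4, also neuronal, was called between genotypes at P0 and at neither earlier stage. The base 1515 probe of Elavl4 read -2.44, -2.24 and -2.08 in E15.5 KO ovaries, against -2.23, -2.17 and -2.00 in E15.5 WT ovaries. At E17.5 it read -2.39, -2.38 and -2.77 in KO ovaries, against -2.54, -2.68 and -2.57 in WT ovaries. At P0 it read -2.49, -2.28 and -1.92 in KO ovaries, against -2.71, -2.63 and -2.60 in WT ovaries. The genotypes were apart at P0 and overlapped at the earlier stages. KO minus WT was -0.12 at E15.5 (adjusted p = 0.758), 0.08 at E17.5 (adjusted p = 0.764) and 0.41 at P0 (adjusted p = 0.0382), each with an SE of 0.14. The P0 call held in 25 of 34 alternatives, and without the third P0 KO array the difference was 0.26 (adjusted p = 0.154).

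The base 792 probe of Elavl4 is dim. It was well above background on all 6 E15.5 arrays, on 2 of 3 arrays in each E17.5 group, on 1 P0 KO array and on none of the P0 WT arrays. The base 792 probe read -4.13, -4.13 and -4.23 in E15.5 KO ovaries, against -4.54, -4.53 and -2.97 in E15.5 WT ovaries, where the array at -2.97 stood apart. In WT ovaries its fitted P0 minus E15.5 difference was -2.15 (SE 0.50, adjusted p = 0.00379). The E15.5 WT mean of -4.01 was 2.97-fold above -5.58, a level taken from the lowest signal well above background. That is not a firm bound on the fall, because the array at -2.97 raises the mean. A signal of -5.50 in E17.5 KO replicate 2 was also not well above background. Genotype was called at no stage (differences of -0.16, 0.23 and 0.01, each with an SE of 0.35). In WT ovaries the base 1515 probe also fell from E15.5 to E17.5, by 0.58 (SE 0.17, adjusted p = 0.026).

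Stage was called for more members in WT than in KO ovaries before birth, a comparison of counts that was not tested. Probe by probe, the change of the genotype difference from E15.5 to E17.5 was called for 0 of the 8 members, against 0.188% of all probes. From E15.5 to E17.5, 2 of the 8 probes were called in KO ovaries (both lower) and 6 in WT ovaries (2 higher, 4 lower), against 21.6% and 24.9% of all tested probes. From E17.5 to P0, 4 were called in KO ovaries (3 higher, 1 lower) and 4 in WT ovaries (all higher), against 37% and 40.8%. Over the whole span, 5 were called in KO ovaries and 7 in WT ovaries, against 36.5% and 45.9%. In the order of the 6 group means, the base 2823 probe of Elavl2 was highest in P0 WT (4.52), then E17.5 WT (3.51), with P0 KO (3.16), E17.5 KO (2.65), E15.5 WT (2.11) and E15.5 KO (2.0) below, and each neighbour from P0 KO downwards overlapped the next. For Elavl3 the order was E15.5 KO (-0.40), E15.5 WT (-0.79), P0 WT (-3.46), E17.5 KO (-3.73), P0 KO (-4.16) and E17.5 WT (-4.18), where P0 WT overlapped E17.5 KO and P0 KO overlapped E17.5 WT.

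The genes whose signal followed each member most closely over the 18 arrays are given as a description, from 15784 named genes. These arrays share stage, genotype and run, so high values arise readily. For Elavl2 they were Lmo7 (Pearson's r 0.988), C1qtnf5 (0.983), Chn1 (0.982), Kif16b (0.98) and Fam174a (0.977), and the most opposite were Rpl9 (-0.977), Rpl8 (-0.972), Topbp1 (-0.971), Rps28 (-0.969) and Rpl7 (-0.967). For the base 2307 probe of Elavl1 they were Rps12 (0.945), Mrpl45 (0.933), Trim33 (0.928), Hs6st1 (0.924) and Sox7 (0.907). Elavl3 was followed by Iho1 (0.986), Unc13a (0.979), Strip2 (0.974), Haus8 (0.971) and Ddb2 (0.97). For the base 1515 probe of Elavl4 the values were lower: Tax1bp3 (0.843), Rmrp (0.843), Mgam (0.82), Pts (0.815) and Cdr2l (0.814). Among the members, the Elavl2 probes followed each other (0.98), and the base 2307 and base 5238 probes of Elavl1 ran opposite (-0.836).

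Genes that act beside the ELAV family were read from 4 lists at P0, where the median difference over all 19298 genes was 0.00. Of 17 other genes for binders of AU-rich elements and mRNA stability, 4 rose in KO ovaries, 0 fell and 13 were not called (median 0.14): Zfp36l1, a decay-promoting zinc finger protein gene (0.31, SE 0.08), Igf2bp3 (0.27, SE 0.08) and Igf2bp1 (0.67, SE 0.19), stabilising RNA-binding protein genes, and Khsrp, of the AU-rich decay machinery (0.40, SE 0.11). Of 10 partners in transport and modification of ELAVL1, Anp32a, a nuclear ligand, rose (0.32, SE 0.10), Cdk1, the mitotic kinase, fell (-0.48, SE 0.09) and 8 were not called (median -0.06), among them Tnpo2, an import receptor (-0.26, adjusted p = 0.148) and Chek2, a checkpoint kinase (-0.51, adjusted p = 0.265). Of 22 measured transcripts reported as ELAV targets in other cells, Ptma (0.35, SE 0.07) and Mcl1, an anti-apoptotic gene (0.44, SE 0.09), rose, 0 fell and 20 were not called (median 0.09), among them Cdkn1b (0.50, adjusted p = 0.0909). All these shares of calls are below the 32.5% of all probes. At E15.5 and E17.5 these 3 lists had no called member.

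Of 16 other neuron-enriched RNA-binding protein genes, 3 rose at P0, 2 fell and 11 were not called (median 0.12), a share of calls near the 32.5% of all probes. Celf6, a splicing regulator, was 1.26 higher in KO ovaries (SE 0.21), Khdrbs3 0.47 higher (SE 0.14) and Srrm4, a regulator of neuronal microexons, 0.59 higher (SE 0.17), whereas Rbfox3 (NeuN) fell by 0.42 (SE 0.12). The E17.5 to P0 step of Celf6 was -0.39 in KO ovaries (SE 0.22, adjusted p = 0.189) and -1.58 in WT ovaries (SE 0.22, adjusted p = 0.000153). The list had 1 called member at E15.5, against 2.06% of all probes, and 0 at E17.5, against 4.82%.

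Markers of other cell types are set beside the neuronal members. Of 15 measured neuron and neural crest markers, 1 rose in P0 KO ovaries, 4 fell and 10 were not called (median -0.37), a share of calls near the 32.5% of all probes. Th, the noradrenergic enzyme tyrosine hydroxylase, differed by -2.33 (SE 0.54), Chga, a secretory granule protein, by -1.53 (SE 0.24) and Tubb3, neuronal tubulin, by -0.37 (SE 0.10). The summed signal of that list was 4.76 to 5.81 in P0 KO ovaries and 5.64 to 6.19 in P0 WT ovaries, and in each P0 group 1 of its 15 members was above background on no array. From E15.5 to E17.5, where Elavl3 fell in both genotypes, the median step of the list was 0.13 in KO ovaries (3 higher, 1 lower) and 0.21 in WT ovaries (2 higher, 1 lower). Of all probes, 21.6% were called for that step in KO ovaries and 24.9% in WT ovaries. From E17.5 to P0, where the Elavl3 step was -0.47 in KO ovaries and 0.67 in WT ovaries, the median step of the list was 0.07 in KO ovaries (1 higher, 1 lower) and 0.43 in WT ovaries (5 higher, 0 lower). Both shares of calls are below those of all probes, 37% in KO ovaries and 40.8% in WT ovaries. The part of these markers in the Elavl3 result was not tested.

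The remaining marker lists hold 4 to 8 genes each, so their counts at P0 are given beside the 32.5% of all probes called and are not read as a result about any list. Pregranulosa markers had 3 of 8 higher and 0 lower (median 0.21), with Wt1, a gonadal transcription factor gene, at 0.46 (SE 0.09), Irx3 at 1.32 (SE 0.28) and Rspo1, a WNT agonist, at 0.43 (SE 0.09). Fst differed by -0.35 (adjusted p = 0.123). Stromal markers had 2 of 6 higher (median 0.12), Nr2f2 by 0.62 (SE 0.10) and Pdgfra by 0.34 (SE 0.08), and Dcn (0.13) and Tcf21 (0.11) were not called. Endothelial markers had 3 of 5 higher (median 0.31): Pecam1 by 0.60 (SE 0.09), Cdh5 by 0.57 (SE 0.12) and Sox18 by 0.31 (SE 0.07), with Tek at 0.19 (adjusted p = 0.144). Macrophage markers had 1 of 4 higher (median 0.15), Adgre1 by 0.38 (SE 0.14). Mesonephric markers had 1 of 4 higher, Emx2 by 0.70 (SE 0.11), and 1 lower, Lhx1 by -0.38 (SE 0.13), with a median of -0.04.

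Of the 6 measured red cell genes, none was called by limma between genotypes at any stage, with medians of 0.29, 1.34 and -0.63 at E15.5, E17.5 and P0. Their summed signal ran from 202 to 407 in E17.5 KO ovaries and from 135 to 199 in E17.5 WT ovaries, and from 63.8 to 72.5 in P0 KO ovaries and from 44.4 to 137 in P0 WT ovaries. The part of this blood content in the member values was not tested.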

How the data were processed

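Total RNA of 18 whole-ovary samples was amplified, Cy3-labelled and hybridised to Agilent 4x44K arrays, per the labels' protocols. The deposited scanner files hold a background-subtracted intensity per spot from Agilent's Feature Extraction software as the authors ran it (10.7.3.1 per the file headers, 9.5 per the submitters' processing notes). The deposited series matrix holds log2 values, which equal the log2 scanner intensity plus 1 constant per array (75th percentile 9.62 on every array, medians 6.17 to 6.46), so genes were not centred. It served as an alternative.

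Groups and replicate numbers came from the labels. Outlier spots (51 to 109 per array) were left out and 0 spots were saturated. Each array's 75th percentile was subtracted from log2 signals. Tested were 29201 probes, with limma 3.58.1 in R 4.3.3 (lmFit and eBayes, 6 groups and run as terms, 11 residual degrees of freedom). The 7 slides and 2 runs were read from the file headers. An error written SE is a standard error of the fit. Coordinates are those of the files, on mm9. Names of 28223 probes came from RefSeq (GRCm38.p6), of which 1471 changed, and 12951 kept the file's name. For a gene of a list the probe with the highest mean was used.

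The members and lists were chosen with earlier results of these data known. Named are all member probes, up to 4 genes per list with the smallest adjusted p at P0, and the 5 genes most alike to each member's brightest tested probe (for Elavl2 also the 5 most opposite). Some genes that this rule names are not reported here. As a pairing check, deviations from group means were correlated between KO and WT arrays of a stage. At E17.5 arrays that share a number stood at 0.153, 0.403 and 0.478. KO replicate 1 with WT replicate 2 stood at 0.293, and KO replicate 2 with WT replicate 1 at 0.332. Replicate 3 with another number was negative (-0.494 to -0.290). So replicate 3, of another run and slide, stood apart at E17.5, and replicates 1 and 2 are not shown to pair by number. At E15.5 arrays that share a number stood at -0.1 to 0.176, and arrays with different numbers at -0.278 to 0.144. At P0 arrays that share a number stood at 0.0771 to 0.145, above those with different numbers (-0.118 to 0.0385). These values are small, and whether the numbers pair arrays at E15.5 and P0 is not settled by them. The fit was tested on simulated data. Those data had independent noise on each array and no slide effect, so they cannot show how slide bears on the genotype calls. Alternatives without the run A arrays of E17.5, without slide 3, and the permutation test of probe ratios were chosen after seeing the data. Plots used Python 3.11.15 and matplotlib 3.10.9.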

Additional observations from a re-analysis of the deposited data

Results flagged for a closer look

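Results stood out by 1 criterion, a genotype difference that itself differed between stages in the fit over all probes. Elavl2 met it at both probes: KO minus WT at P0 stood below that at E15.5 by -1.25 at base 2823 (SE 0.17, adjusted p = 0.000758) and by -1.18 at base 1816 (SE 0.22, adjusted p = 0.00406). Elavl3 met it in both comparisons with P0, at -1.09 against E15.5 (SE 0.27, adjusted p = 0.017) and -1.14 against E17.5 (SE 0.27, adjusted p = 0.0225). All P0 arrays lay in run B and all E15.5 arrays in run A, and the part of run, slide and cell makeup in these differences was not tested.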

How the results depend on the processing

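Values are log2 differences, KO minus WT, from limma, lost or gained at an adjusted p of 0.05. With array weights, Elavl1 base 2307 (0.40, adjusted p = 0.111) and base 5238 (-0.47, adjusted p = 0.104) were lost at E17.5, as was the E17.5 to P0 change of Elavl3 (-0.94, adjusted p = 0.0823), and Elavl2 base 1816 was gained at E15.5 (-0.51, adjusted p = 0.0402). Without a filter on dim probes, Elavl1 base 2307 at E17.5 (0.38, adjusted p = 0.0769) and Elavl4 base 1515 at P0 (0.41, adjusted p = 0.0616) were lost. Without the run term, Elavl1 base 2307 at E17.5 (0.38, adjusted p = 0.0596), base 5238 at E15.5 (-0.55, adjusted p = 0.0714), Elavl2 base 1816 at E17.5 (-0.97, adjusted p = 0.0818) and its E15.5 to P0 change (-1.18, adjusted p = 0.0639) were lost. With normexp and quantile normalization, the Elavl2 base 2823 changes from E15.5 to E17.5 (-0.78, adjusted p = 0.0485) and E17.5 to P0 (-0.65, adjusted p = 0.0165), the base 1816 change from E17.5 to P0 (-0.79, adjusted p = 0.00516), Elavl3 at E15.5 (0.35, adjusted p = 0.049) and the Elavl4 base 1515 change from E15.5 to P0 (0.49, adjusted p = 0.0199) were gained. The Elavl2 probe ratio reversed to -0.025 there, and was 0.21 (exact permutation, adjusted p = 0.0656) with quantile normalization. Quantile normalization also lost Elavl3 at P0 (-0.49, adjusted p = 0.0747) and its E17.5 to P0 change (-0.94, adjusted p = 0.05), and gained the Elavl4 change to P0 (0.62, adjusted p = 0.0445). With only the stages compared, Elavl1 base 2307 (0.38 at E17.5, 0.32 at P0), base 5238 (-0.55 at E15.5, -0.53 at E17.5), both Elavl2 probes at E17.5 (-0.87 and -0.97), the Elavl3 change from E17.5 to P0 (-1.14) and Elavl4 at P0 (0.41) were lost, where fewer arrays enter the fit. With the replicate block, Elavl1 base 2307 at E17.5 (0.38, adjusted p = 0.0897), base 5238 at E15.5 (-0.55, adjusted p = 0.0644) and the Elavl3 changes to P0 (-1.09 and -1.14) were lost, and it changed no other genotype call. Scaling by the array median, which moves the median of all probes at P0 by 0.14 and the share of calls that are higher to 72.5% against 50.8%, lost Elavl1 base 2307 at E17.5 (0.36), base 5238 at P0 (-0.25, adjusted p = 0.075) and Elavl3 at P0 (-0.56), and gained the Elavl4 change to P0 (0.71, adjusted p = 0.027). With slide as a random block beside run, Elavl1 base 2307 at E17.5 was lost (0.38, adjusted p = 0.0529). With slide in place of run, Elavl1 base 2307 (0.36 at E17.5, 0.34 at P0), base 5238 (-0.50, -0.51 and -0.41), Elavl2 base 1816 at E17.5 (-1.04) and its change to P0 (-1.34), Elavl3 at P0 (-0.77) and its changes to P0 (-1.16 and -1.41) and Elavl4 at P0 (0.46) were lost. Without slide 3, Elavl1 base 2307 (0.46), base 5238 (-0.57) and Elavl2 base 1816 (-0.81) at E17.5 were lost, and the Elavl2 base 2823 change from E17.5 to P0 (-0.64, adjusted p = 0.047) and the Elavl4 change from E15.5 to P0 (0.62, adjusted p = 0.0492) were gained. Without the run A arrays of E17.5 the same 3 probes were lost (0.46, -0.57 and -0.81). The cause of these changes was not tested.

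Leaving out 1 array at a time, differences ran from 0.32 to 0.46 for Elavl1 base 2307 at E17.5 and from 0.25 to 0.43 at P0, and for base 5238 from -0.60 to -0.48 at E15.5 and from -0.61 to -0.42 at E17.5. For Elavl2 they ran from -1.10 to -0.81 at base 1816 at E17.5, and from -0.86 to -0.61 for the base 2823 change from E15.5 to E17.5. For Elavl3 they ran from -0.76 to -0.62 at P0 and from -1.33 to -0.73 for the change from E17.5 to P0. For Elavl4 base 1515 they ran from 0.26 to 0.54 at P0 and from 0.38 to 0.66 for the change from E15.5 to P0.

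Over the alternatives, the number of called probes over the whole array ran from 3 to 1478 at E15.5 (602 as reported), from 1 to 1918 at E17.5 (1407), from 2750 to 10786 at P0 (9496) and from 2677 to 7909 for the mean of the stages (7452). For changes of the genotype difference it ran from 396 to 6102 for E15.5 to P0 (5080), from 0 to 319 for E15.5 to E17.5 (55) and from 181 to 3506 for E17.5 to P0 (2624). Stage calls ran from 3563 to 11251 in KO (6320 as reported) and 1677 to 9270 in WT (7268) for E17.5 against E15.5, from 6972 to 11114 in KO (10807) and 6058 to 12615 in WT (11905) for P0 against E17.5, and from 7405 to 16611 in KO (10667) and 9857 to 17270 in WT (13404) for P0 against E15.5. The fewest genotype calls came with slide in place of run, except at E17.5, where they came with only the stages compared. Of 1520 stage comparisons of member probes under the alternatives, 1402 kept direction and call, 85 lost the call and 33 gained one. The series matrix values, floored signals, a stricter filter and trended moderation changed no genotype call of a member. The series matrix values differ from the main values by nearly the same shift on every array. They could therefore change no call, and their result is no separate support. Floored signals leave the tested member probes as measured, except Elavl4 base 792. These settings are counted among the alternatives. Dim probes limit what can be seen of Elavl4 base 792.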
